A study of Arabidopsis thaliana with 18 samples.

Results

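The comparison of myb107-2 with WT seeds at 11 days after pollination (DAP) under warm growth was examined over the whole nuclear transcriptome. Its members were the 3 libraries labelled myb107-2, 11 DAP and 22 °C and the 3 WT libraries of the same stage and temperature, which are 6 of the 18 libraries of the series. The study asked how the seed coat of Arabidopsis thaliana forms a barrier in seeds that mature in the cold, and sequenced polyadenylated RNA from seed coats and endosperms dissected together from developing seeds. myb107-2 is a T-DNA insertion mutant of MYB107 and was the single mutant allele sequenced, and WT is the Columbia ecotype in which it was isolated. No plant of these 6 libraries had been moved to the cold. The remaining libraries are myb107-2 and WT after 48 h of cold from 11 DAP, WT after 6 h of cold, and WT at 13 DAP in the warm. The labels give 13 °C for the cold, the text of the study 10 °C for this transfer, and its methods a range of 10 to 13 °C. Each library came from the pooled seeds of 4 siliques of 3 to 4 plants, and the methods say of the study's seed batches that they were collected on 1 day from plants raised next to each other. The p-values therefore measure the spread between pools of seeds, not between separate growths.

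MYB107 belongs to the MYB family of DNA-binding proteins and activates genes for suberin, a wall polyester of fatty acids, glycerol and ferulic acid that makes cell walls less permeable. In the seed coat its protein has been located in the inner cell layer of the outer integument, called oi1. The other seed coat layers have their own programmes during the same days. The epidermis secretes pectin-rich mucilage and builds thick secondary walls, and the inner integument makes proanthocyanidins. The endosperm holds storage proteins and oil.

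MYB107 (AT3G02940; chromosome 3 of TAIR10.1, 661849 to 664011, plus strand) was measured first, since it is the mutated gene. It had 2.37, 2.82 and 3.84 CPM in the 3 myb107-2 libraries, against 40.5, 27.8 and 34.7 CPM in the 3 WT libraries. CPM are counts scaled to a common library size with the TMM method. Every mutant library was far below every WT library, and reads from the locus were still counted in the mutant. The study genotyped the line with a pair of primers that flank a part of the gene. They are shown 5′ to 3′ in lower case and were placed on TAIR10.1 by exact match.
left primer, chr3:662008-662029, plus strand, at the edge of exon 2: ccgatttcttagcaaaagtgtg
right primer, chr3:663059-663079, minus strand, in exon 3: gttatccgttcttcctgggag
The transcript was also assayed by PCR in the study with a primer that lies downstream of this pair, in exon 3.
qPCR primer, chr3:663177-663192, minus strand: gggagagcggctagaa
Of the 20 nearest annotated genes around MYB107, 15 had counts and 0 were called by the test described next, with log2 fold changes from −2.30 to 13.46. The last value belongs to AT3G02910, which had 0, 29.8 and 30.3 CPM in myb107-2 and 0 CPM in all 3 WT libraries (edgeR adjusted p = 0.19).

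The deposited counts of nuclear genes summed to between 59.3 M and 80.7 M in myb107-2 and to between 65.1 M and 84 M in WT, and 3 counts, taken as the detection limit, were 0.0315 to 0.0478 CPM. Genes of the ribosomal RNA units took 6% to 14.4% of the counts in myb107-2 and 9.58% to 16.4% in WT. The tissue label was checked against marker genes. Endosperm markers summed to 10613 to 15859 CPM in myb107-2 and 13320 to 18200 CPM in WT, nearly all of it from EPR1, an extensin-like gene of the endosperm. Inner integument markers summed to 1619 to 2452 CPM in myb107-2 and 2429 to 2548 CPM in WT. Most of this came from TT10, which the study describes as expressed in oi1 as well as in the inner integument. TT10 had 2048, 1689 and 1260 CPM in myb107-2, against 1835, 1831 and 1927 CPM in WT. BAN had 179, 230 and 190 CPM in myb107-2, against 299, 264 and 226 CPM in WT. TT4 had 225, 195 and 168 CPM in myb107-2, against 413, 334 and 331 CPM in WT. Of the 10 embryo markers, 5 were at 0 in all 6 libraries, and CUC1 and SCR carried nearly all of a sum of 34.8 to 45.5 CPM in myb107-2 and 31 to 38 CPM in WT. The 4 markers of oi1 and the outer integument summed to 2.44 to 4.34 CPM in myb107-2 and 28.6 to 41.4 CPM in WT, which was almost wholly MYB107 itself. GPAT5, an acyltransferase of suberin synthesis, was at 0 to 0.498 CPM, and GPAT7 was at 0 in all 6 libraries. In a whole tissue, fewer cells of a type and less RNA per cell cannot be told apart.

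Of 26068 genes with a count, 187 (0.717%) were called lower and 47 (0.18%) higher in myb107-2, by the quasi-likelihood test of edgeR. A call needed a p-value no higher than 0.05 after Benjamini-Hochberg adjustment, and a change no smaller than 1 log2 unit. Together these were 0.898% of the genes tested. Without the fold change minimum, 1.24% of genes were lower and 0.391% higher. The called genes that were lower had a median log2 fold change of −1.65 and the higher ones of 1.29, and the median of all genes was 0.00, with 49.2% of them below 0. Changes of 8-fold or more were seen for 45 lower and 6 higher genes. In 185 of the 187 lower genes, every myb107-2 library was below every WT library, which held for 9.22% of all genes. In the 47 higher genes, every myb107-2 library was above every WT library, which held for 8% of all genes. Protein-coding genes made up 180 of the lower and 43 of the higher genes. The lower genes were spread over chromosomes 1 to 5 as 56, 29, 27, 26 and 49 genes, and the higher ones as 12, 10, 8, 5 and 12. Leaving out a single library changed these counts: 93 lower and 22 higher genes were called without myb107-2 replicate 2, 92 and 24 without myb107-2 replicate 3, 126 and 28 without WT replicate 1, and 115 and 23 without WT replicate 2. With each of the 6 libraries left out in turn, 75 lower and 19 higher genes always kept their call.

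**Figure D1:**
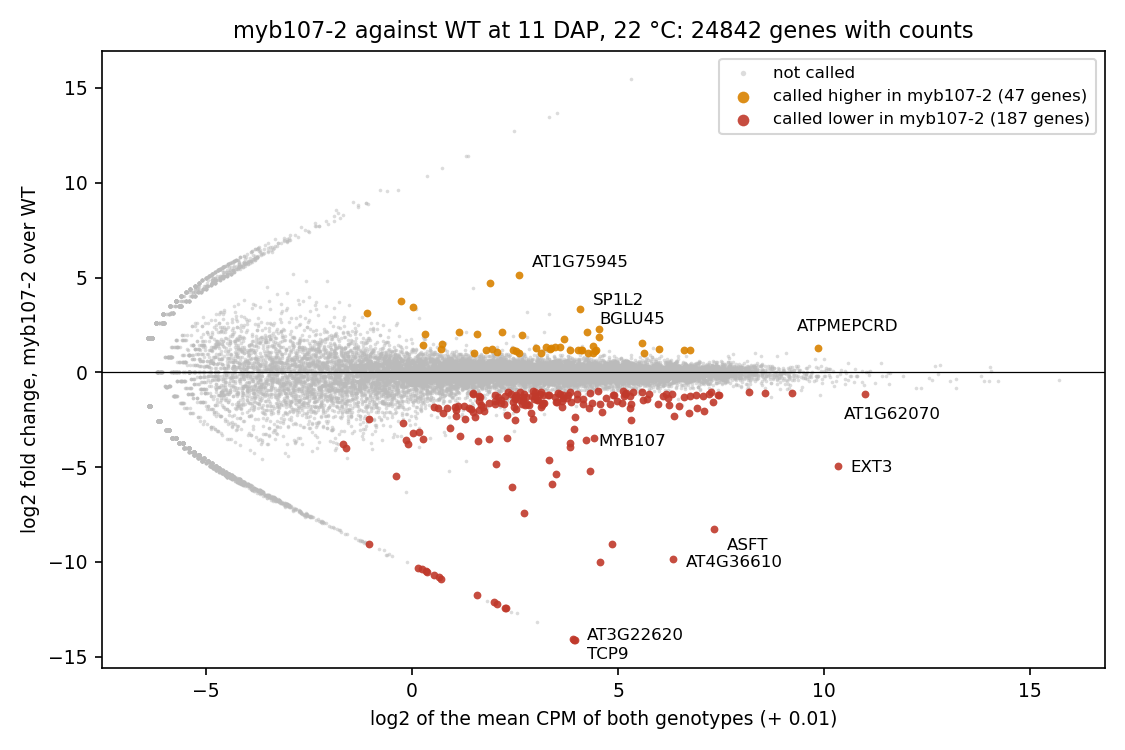
Each point is 1 of the 24842 genes with counts in the 6 libraries, with the log2 of its mean CPM over both genotypes on the x axis and its log2 fold change (myb107-2 over WT) on the y axis. Lower calls (187 genes) reach much larger changes than higher calls (47 genes), and the rows of points at the far left and along the curved edges are genes at 0 in one genotype.

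Genes for suberin and cutin polyesters held some of the largest decreases. Of 28 members tested, 7 were called lower and 0 higher, and the list's median was −0.56 in log2 fold change. For comparison with this list and those below, 0.717% of all genes tested were called lower and 0.18% higher. ASFT (AT5G41040; chromosome 5, 16431304 to 16433305), the acyltransferase that joins ferulic acid to long-chain alcohols and hydroxy acids, had 1.42, 0.669 and 0.952 CPM in myb107-2, against 300, 285 and 377 CPM in WT. The genotypes were 306-fold apart, with a log2 fold change of −8.26 ± 0.42 (SE; edgeR adjusted p = 3.1e-08). CYP86B1 hydroxylates very long fatty acids and had 1.53, 1.21 and 0.293 CPM in myb107-2, against 28.8, 27.3 and 60 CPM in WT. Its close relative CYP86B2 had 0.294, 0.382 and 0.395 CPM in myb107-2, against 18.3, 16 and 27.9 CPM in WT. BDG3, an alpha/beta-hydrolase of the BODYGUARD family named for its cuticle phenotype, had 0 counts in all 3 myb107-2 libraries and 6.1, 4.03 and 7.72 CPM in WT. With a floor of 3 counts a library it was at least 145-fold lower, provided that a deposited 0 stands for low expression. GPAT4, which makes cutin precursors, had 3.14, 2.34 and 2.64 CPM in myb107-2 and 10.5, 8.92 and 16.9 CPM in WT. ABCG6, a transporter needed for suberin of roots and seed coats, and CYP86A8 were called with smaller shifts (log2 fold changes of −1.99 and −1.02), and these calls were kept with only 2 and 1 of the 6 single libraries left out. The abundant wax and polyester genes KCS6 (576 CPM in myb107-2, 745 CPM in WT), ABCG20 (464 and 608 CPM) and LACS1 (393 and 475 CPM) were not called. CYP86A1, FAR4, FAR5 and GPAT7, which belong to the same pathway, were at 0 in all 6 libraries.

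MYB9, the closest relative of MYB107 in the barrier pathway, was barely expressed at this stage. It had 0.0734, 0 and 0 CPM in myb107-2, against 0.521, 0.774 and 3.17 CPM in WT, and stood at the threshold (edgeR adjusted p = 0.0499). Its call was lost when any of 5 of the 6 libraries was left out, and its WT level at 13 DAP was 113 CPM.

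Phenylpropanoid genes make the aromatic part of suberin and the precursors of lignin. Of 19 enzymes, 3 were called lower and 0 higher, with a median of −0.65 and 18 values below 0. 4CL2, which activates hydroxycinnamic acids with coenzyme A, had 5.08, 5.13 and 4.76 CPM in myb107-2, against 27.9, 20.7 and 28.6 CPM in WT (log2 fold change −2.38 ± 0.17, edgeR adjusted p = 8.7e-07). Its neighbour 4CL5 and the methyltransferase gene CCOAOMT1 were lower by about 1 log2 unit (−1.13 and −1.06). The entry enzymes PAL1 (3.91 CPM in myb107-2, 9.34 CPM in WT) and C4H (48.7 and 75.6 CPM) were not called, nor were the monolignol dehydrogenases CAD4 (105 and 84.7 CPM) and CAD5 (96.5 and 111 CPM).

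**Figure D2:**
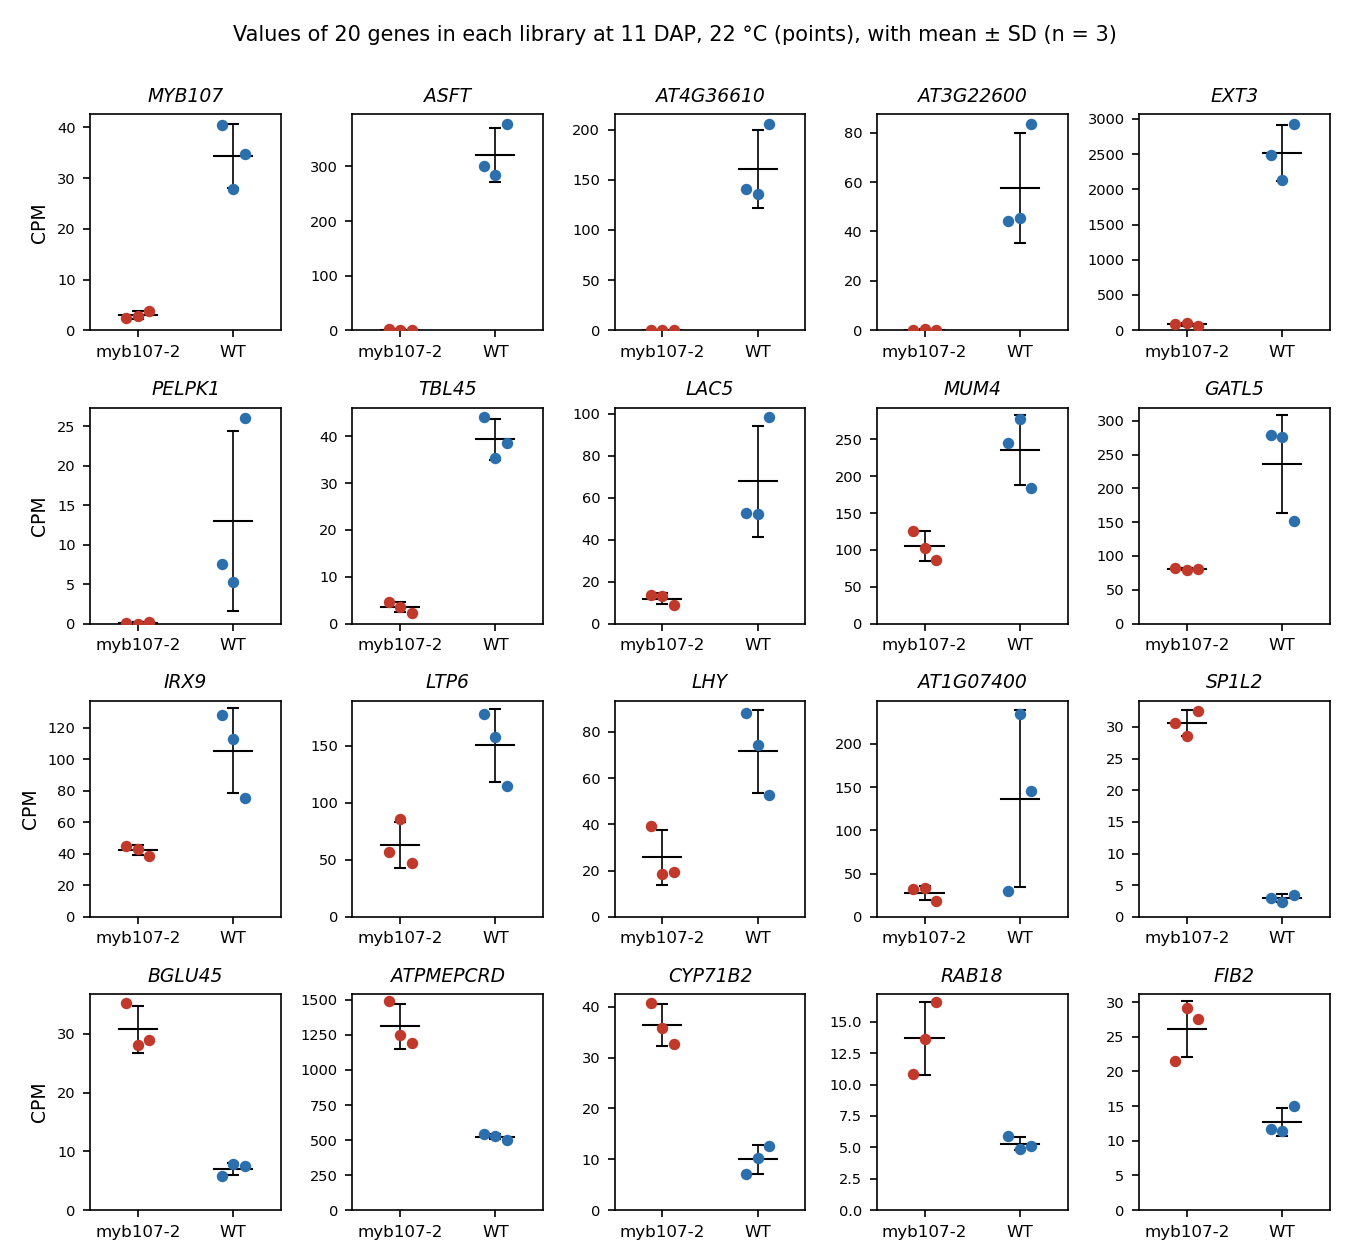
Each panel shows 1 gene, with CPM on a linear y axis from 0 and the 3 myb107-2 libraries left of the 3 WT libraries. Points are libraries and bars the mean ± SD (n = 3), and the panels of ASFT, AT4G36610, AT3G22600 and PELPK1 have all 3 myb107-2 points at or near 0.

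MYB proteins of the lignin and phenylpropanoid pathway bind short AC-rich elements. The motif ACCTACC, its variant ACCAACC and a further variant written ACCAAAC were searched on both strands from 250 bases before to 50 bases after each annotated start. At least 1 of them was present in 37 of the 187 lower genes, which is 19.8% (exact 95% interval 14.3 to 26.2%). For comparison, 7 of the 47 higher genes (14.9%) and 14.2% of all genes tested held one. Among the 15 lower genes with the smallest p, 3 had an element in the 250 bases before the start, and these windows are printed because they show where the matches lie. Bases are in the direction of transcription, capitals mark the elements, and GTTTGGT is ACCAAAC on the other strand.
EXT3, chr1:7455010-7455259, minus strand, element at −121: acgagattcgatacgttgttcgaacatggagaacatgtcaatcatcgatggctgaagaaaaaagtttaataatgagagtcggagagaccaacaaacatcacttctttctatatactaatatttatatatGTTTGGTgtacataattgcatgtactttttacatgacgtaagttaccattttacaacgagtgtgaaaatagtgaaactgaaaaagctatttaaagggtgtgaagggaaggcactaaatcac
4CL2, chr3:7457405-7457654, minus strand, elements at −140 and −31: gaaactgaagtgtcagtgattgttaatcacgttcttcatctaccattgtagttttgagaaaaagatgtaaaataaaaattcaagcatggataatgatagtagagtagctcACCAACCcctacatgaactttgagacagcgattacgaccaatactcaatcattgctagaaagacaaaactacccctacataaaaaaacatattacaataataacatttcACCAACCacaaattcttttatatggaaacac
AT2G48130, chr2:19686057-19686306, minus strand, element at −184: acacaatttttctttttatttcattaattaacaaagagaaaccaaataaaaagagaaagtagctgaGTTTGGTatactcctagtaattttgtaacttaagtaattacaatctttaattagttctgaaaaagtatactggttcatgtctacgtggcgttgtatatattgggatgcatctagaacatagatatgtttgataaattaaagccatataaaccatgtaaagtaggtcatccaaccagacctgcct
The 12 other promoters of this group, among them those of ASFT, CYP86B1 and CYP86B2, held none of the 3 sequences in the same window. A match is a description of the sequence and was not tested for binding.

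The lowest p of all genes belonged to AT4G36610, an alpha/beta-hydrolase gene (chromosome 4, 17265332 to 17267472) with 0.315, 0 and 0.146 CPM in myb107-2, against 141, 136 and 205 CPM in WT (edgeR adjusted p = 5.4e-09). Several genes annotated as lipid transfer proteins, small proteins of the cell wall that bind lipids, were also at or near 0 in myb107-2. AT3G22600 had 0, 0.35 and 0.0293 CPM in myb107-2, against 44.4, 45.3 and 83.3 CPM in WT. Its neighbour AT3G22620 had 0 counts in all 3 myb107-2 libraries and 20.1, 23.3 and 48.8 CPM in WT, at least 749-fold lower. A further pair of neighbours of this class, AT2G48130 and EDA4, was also at 0 in myb107-2. AT2G48130 had 25.3, 22.1 and 42.9 CPM in WT (at least 734-fold lower), and EDA4 had 5.13, 4.36 and 14.1 CPM in WT (at least 192-fold lower). Of the 50-base windows of AT2G48130, 78.8% were unique in the genome, so part of its reads may be shared with other loci. The more abundant lipid transfer protein LTP6 had 56.6, 85.4 and 47.3 CPM in myb107-2, against 178, 158 and 115 CPM in WT, and its call (log2 fold change −1.27) was lost without myb107-2 replicate 3 (edgeR adjusted p = 0.085) or WT replicate 1 (adjusted p = 0.058). A list of 15 lipid transfer proteins, which holds AT3G22600 and LTP6 but none of the other 3, had these 2 called lower, 0 higher and a median of −0.54.

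Of 12 extensins and proline-rich wall proteins, 2 were called lower and 0 higher, with a median of −0.06. EXT3 (chromosome 1, 7453245 to 7455009), an extensin that forms a hydroxyproline-rich scaffold in walls, had 86.4, 99.5 and 62.2 CPM in myb107-2, against 2487, 2139 and 2923 CPM in WT, a 30.7-fold difference (log2 fold change −4.94 ± 0.31, edgeR adjusted p = 2.9e-07). In myb107-2 the sum of the whole extensin and proline-rich list was 86.9 to 189 CPM, against 2222 to 3086 CPM in WT, and EXT3 made up most of it. PELPK1, a proline-rich protein, had 0.021, 0 and 0.22 CPM in myb107-2, against 7.58, 5.23 and 26.1 CPM in WT. AT5G09480, a hydroxyproline-rich glycoprotein gene on the same chromosome, had 0.0839, 0 and 0.0293 CPM in myb107-2, against 41.4, 26.1 and 73.3 CPM in WT. In both, WT replicate 3 was the highest library. The other 10 genes of the extensin list were not called. FLA5, a fasciclin-like arabinogalactan protein, had 15.1, 18 and 17.4 CPM in myb107-2, against 67.4, 76.2 and 39.1 CPM in WT, and was the 1 of 47 arabinogalactan proteins called.

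Of enzymes and copper proteins that act in walls, 2 of 16 laccases, 2 of 47 class III peroxidases and 2 of 13 cupredoxins were called lower and 0 higher. Among all genes tested, 0.717% were called lower. With 1 library left out, the number called lower was 1 to 2 for laccases, 0 to 2 for peroxidases and 1 to 2 for cupredoxins. LAC5, a laccase able to couple monolignols, had 13.8, 13.1 and 8.83 CPM in myb107-2, against 52.8, 52.4 and 98.5 CPM in WT (log2 fold change −2.51, edgeR adjusted p = 0.00019). LAC12 had 0 counts in myb107-2 and 0.903, 1.47 and 4.66 CPM in WT (at least 57.1-fold lower), and its call was kept with 3 of the 6 single libraries left out. TT10, the seed coat laccase that oxidises flavonoids, was the most abundant of the 16 laccases tested (1666 CPM in myb107-2, 1864 CPM in WT) and was not called. The cupredoxin gene AT1G72230 had 0.797, 0.637 and 0.103 CPM in myb107-2, against 14.9, 13.6 and 37.3 CPM in WT. PRX52, a class III peroxidase of lignification, had 0.734, 0.971 and 1.6 CPM in myb107-2, against 4.78, 2.56 and 6.06 CPM in WT. The summed CPM of the peroxidases was 7760 to 9415 in myb107-2 and 7473 to 10125 in WT.

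Genes that modify wall polysaccharides were among the clearest single calls. TBL45, of a family that acetylates polysaccharides, had 4.53, 3.6 and 2.3 CPM in myb107-2, against 44.1, 35.4 and 38.6 CPM in WT (log2 fold change −3.49, edgeR adjusted p = 3.5e-07). TBL30 was lower as well, with 0.818, 0.923 and 0.366 CPM in myb107-2, against 3.58, 3.52 and 3.24 CPM in WT, and the other 38 of the 40 family members tested were not called. AT5G63180, a pectin lyase-like gene, had 49.5, 53.1 and 50.8 CPM in myb107-2, against 217, 162 and 191 CPM in WT. QRT2, a polygalacturonase that cuts pectin, had 0 counts in myb107-2 and 2.63, 2.03 and 3.9 CPM in WT. AT4G26580, a RING-domain gene of unstated function, behaved like these wall genes with 3.57, 3.22 and 3.34 CPM in myb107-2, against 30.8, 20 and 29.7 CPM in WT. RALF1, a peptide hormone of cell growth, was at 0 in myb107-2 and at 1.7, 1.41 and 4.45 CPM in WT.

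Of 25 members of a list for the seed coat epidermis and its mucilage, 4 were called lower and 0 higher, 23 values were below 0, and the median was −0.34. MUM4 (chromosome 1, 19966944 to 19969757), which makes the rhamnose donor for mucilage pectin, had 126, 103 and 86 CPM in myb107-2, against 245, 278 and 184 CPM in WT (log2 fold change −1.18 ± 0.16, edgeR adjusted p = 0.0012). It overlaps HEI10, on the opposite strand, which had much lower counts and was also called lower. GATL5, a galacturonosyltransferase-like protein of mucilage size control, had 81.7, 79.8 and 80.8 CPM in myb107-2, against 279, 276 and 152 CPM in WT. The beta-galactosidase MUM2, which trims mucilage so that it swells, was just past the fold threshold with 24.2, 25.3 and 20.4 CPM in myb107-2, against 51.7, 51.8 and 34.8 CPM in WT, and PMEI6, an inhibitor of pectin methylesterase, had 2.54, 3.23 and 1.7 CPM in myb107-2, against 8.12, 3.86 and 5.9 CPM in WT. The regulators GL2 (133 CPM in myb107-2, 170 CPM in WT) and MYB61 (79.7 and 96.4 CPM) and the mucilage protease SBT1.7 (916 and 1505 CPM) were not called. The number called in the list was 2 to 3 with 1 library left out.

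Of 16 enzymes that make sugar donors for pectin, in a list chosen after the values were seen, 4 were called lower (MUM4, NRS/ER, GAE6 and DUR), 0 higher, and the median was −0.44. NRS/ER, which completes rhamnose donor synthesis, had 122, 98.1 and 78.9 CPM in myb107-2, against 231, 220 and 165 CPM in WT. GAE6, which makes the galacturonic acid donor, had 49.5, 40 and 31.4 CPM in myb107-2, against 107, 106 and 74.8 CPM in WT. The count of 4 fell to 1 without myb107-2 replicate 3 or without WT replicate 1, and to 2 without WT replicate 2, and was 5 without WT replicate 3.

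Xylan, the hemicellulose of secondary walls, gave the lowest median of the cell wall lists. All 14 members with counts had values below 0, the median was −0.76, and 3 were called lower (GXMT1, IRX9 and IRX15-L), again in a list chosen after the values were seen. IRX9, which extends the xylan backbone, had 45, 43.1 and 38.7 CPM in myb107-2, against 128, 113 and 75.6 CPM in WT, and GXMT1, which methylates its side chains, had 8.84, 10 and 6.3 CPM in myb107-2, against 20.7, 23 and 13 CPM in WT. The genotypes did not overlap, but WT replicate 3 was the lowest WT library for both. No member stayed called without myb107-2 replicate 3 or without WT replicate 1, and the count was 1 without myb107-2 replicate 2 or WT replicate 2. Related genes named after their values were seen were MAN7, a mannanase (264, 273 and 186 CPM in myb107-2, 643, 515 and 383 CPM in WT), RRA1, an arabinosyltransferase of extensins (6.67, 6.64 and 6.14 CPM in myb107-2, 17.4, 16.8 and 13 CPM in WT), and AT1G62070, an uncharacterised gene with the highest WT mean of all lower genes (1227, 1431 and 1205 CPM in myb107-2, 3387, 2826 and 2147 CPM in WT). The call of AT1G62070 was kept with 1 of the 6 single libraries left out, that of MAN7 with 3 and that of RRA1 with 6.

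The WT libraries were not alike for these groups. Among 183 lower genes with a WT mean of at least 1 CPM, WT replicate 3 was the highest WT library for 33 of the 42 genes with changes of 8-fold or more and the lowest for 4 of them. Among the other 141 genes it was the highest for 27 and the lowest for 93. Over all 17227 genes at that level it was the highest for 35.4% and the lowest for 31.7%. This division was made after the values were seen. Without WT replicate 3, 228 genes were called lower and 64 higher.

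Flavonoid genes of the inner integument gave 1 call. FLS1, flavonol synthase, had 34.6, 22.8 and 23.1 CPM in myb107-2, against 73.9, 48.4 and 42 CPM in WT (log2 fold change −1.04, edgeR adjusted p = 0.036), and the median of the 13 members was −0.42. The call of FLS1 was kept with 2 of the 6 single libraries left out, and the number called in the list was 0 to 2. TT4, chalcone synthase, passed the adjusted p but not the fold threshold, with 225, 195 and 168 CPM in myb107-2, against 413, 334 and 331 CPM in WT (edgeR adjusted p = 0.0085). The 7 transparent testa regulators had a median of −0.22, with 0 calls by edgeR or DESeq2 and 1 lower and 0 higher at an unadjusted p under 0.05.

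Of 39 small heat shock and DnaJ proteins, chosen after the values were seen, 3 were called lower and the median was 0.00. AT1G59860, a small heat shock protein, had 10, 9.31 and 8.14 CPM in myb107-2, against 20.5, 64 and 33.6 CPM in WT. AT1G07400, of the same family, had 32.3, 33.2 and 18.6 CPM in myb107-2, against 30, 234 and 145 CPM in WT, so that WT replicate 1 lay within the mutant range. Its log2 fold change of −2.29 (edgeR adjusted p = 0.029) lost the call without WT replicate 2 (−1.64, adjusted p = 0.14) and without each of the myb107-2 libraries. The chaperone genes AT3G09440, an Hsp70 (456, 432 and 255 CPM in myb107-2, 615, 1103 and 697 CPM in WT), and Fes1A (34.3, 30.2 and 21.9 CPM in myb107-2, 45.2, 126 and 55.8 CPM in WT) and the heat response coactivator MBF1C (69.6, 112 and 91.3 CPM in myb107-2, 212, 269 and 124 CPM in WT) were called lower too, with the call kept with 3, 3 and 1 of the 6 single libraries left out. In a list of 29 heat shock proteins, edgeR called 0, DESeq2 called 3 lower, 10 were lower and 0 higher at an unadjusted p under 0.05, and the median was −0.24. Without WT replicate 1, edgeR called 6 of them lower. Summed over this list, the CPM were 3424 to 4800 in myb107-2 and 4908 to 8193 in WT.

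Among genes of the circadian clock, those expressed around dawn held the calls. LHY, a MYB-like repressor at the core of the clock, had 39.5, 18.7 and 19.3 CPM in myb107-2, against 88.2, 74.4 and 52.6 CPM in WT (log2 fold change −1.48 ± 0.25, edgeR adjusted p = 0.0057). Its partner CCA1 had 16.1, 8.07 and 6.42 CPM in myb107-2, against 43.3, 29.5 and 20 CPM in WT, and CDF1, a DOF factor, had 3.19, 3.22 and 3.38 CPM in myb107-2, against 10.3, 5.86 and 5.45 CPM in WT. These were 3 of 17 clock genes, a list chosen after the values were seen, with a median of −0.10, and the evening genes TOC1 (18.7 CPM in myb107-2, 18.5 CPM in WT) and GI (33.8 and 32.2 CPM) were not called. The call of LHY held with every single library left out, that of CCA1 with 3 and that of CDF1 with 1 of the 6. The light-responsive genes ELIP1 (29, 27.2 and 33.9 CPM in myb107-2, 157, 62.2 and 63.6 CPM in WT) and HYH (4.25, 3.29 and 3.43 CPM in myb107-2, 10.4, 9.71 and 6.85 CPM in WT) were lower as well. The labels do not give the time of day at which each library was collected, and its part in these values was not tested.

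The 47 genes called higher were fewer and mostly smaller in change, and 3 of them averaged at least 100 CPM in myb107-2. The smallest p among them was that of SP1L2 (chromosome 1, 26026253 to 26027771), of the SPIRAL1 family that binds microtubules, with 30.6, 28.5 and 32.6 CPM in myb107-2, against 3.03, 2.39 and 3.51 CPM in WT. It overlaps SIK1 on the same strand, whose own log2 fold change was −0.03, and the sum of both was 50.8 ± 4.21 CPM in myb107-2 and 23.5 ± 3.24 CPM in WT (SD, n = 3). BGLU45, a beta-glucosidase able to release monolignols from their glucosides, had 35.3, 28.1 and 28.9 CPM in myb107-2, against 5.84, 7.8 and 7.52 CPM in WT (log2 fold change 2.12 ± 0.16, edgeR adjusted p = 1.8e-06). The cytochrome P450 gene CYP71B2 had 40.8, 35.8 and 32.7 CPM in myb107-2, against 7.08, 10.3 and 12.7 CPM in WT. AT1G34575, a berberine bridge enzyme-like oxidase, had 8.41, 5.4 and 7.5 CPM in myb107-2, against 0.486, 0.16 and 0.134 CPM in WT. AT1G75945, an uncharacterised protein gene, had 10.5, 14 and 10.9 CPM in myb107-2, against 0.393, 0 and 0.605 CPM in WT. These 5 genes were named for a small p among genes whose libraries do not overlap, so the lack of overlap was set by that choice. Their calls were kept with each library left out, which a small p makes likely. The other abundant higher genes were LEA7, a late embryogenesis abundant protein, and DIN10, a raffinose synthase family gene with 162, 119 and 123 CPM in myb107-2, against 38.9, 68.3 and 73 CPM in WT.

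The most abundant higher gene was ATPMEPCRD (AT2G43050; chromosome 2, 17902370 to 17904443), a pectin methylesterase and inhibitor-domain gene. It had 1491, 1248 and 1193 CPM in myb107-2, against 541, 530 and 503 CPM in WT, a log2 fold change of 1.30 ± 0.20 (edgeR adjusted p = 0.0039). It was the 1 member called higher among 19 pectin methylesterases and inhibitors, whose median was −0.24. PME44, which removes methyl groups from pectin, and PMEI6 were called lower, and each of these calls was kept with 1 of the 6 single libraries left out. The sum of the class was 1498 to 1955 CPM in myb107-2 and 961 to 1068 CPM in WT, set largely by ATPMEPCRD. Other genes with small p that rose were AT2G23400, a cis-prenyltransferase (19.1, 15.9 and 24 CPM in myb107-2, 5.36, 6.07 and 6.25 CPM in WT), the zinc finger gene AT1G49900 (11.4, 8.58 and 10.6 CPM in myb107-2, 2.74, 1.91 and 2.98 CPM in WT), the lipase ARAB-1 (8.91, 6.78 and 6.61 CPM in myb107-2, 1.69, 1.69 and 1.67 CPM in WT), and ERF110, an ethylene response factor (23.8, 23.9 and 24.4 CPM in myb107-2, 12.8, 8.86 and 9.71 CPM in WT).

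Of 16 genes that respond to abscisic acid, the hormone of seed maturation and dormancy, in a list chosen after the values were seen, 5 were called higher and 1 (RD22) lower, and the median was 0.51. RAB18, a dehydrin that protects cells from drying, had 10.8, 13.6 and 16.6 CPM in myb107-2, against 5.9, 4.87 and 5.11 CPM in WT (log2 fold change 1.34 ± 0.18, edgeR adjusted p = 0.00097). NAC019, a transcription factor of stress responses, had 54.4, 64.7 and 95.2 CPM in myb107-2, against 31.7, 15.2 and 24.9 CPM in WT. LEA7 had 98.6, 145 and 199 CPM in myb107-2, against 64.7, 55.2 and 73.6 CPM in WT. LTI65 and MAPKKK17 were close to the fold threshold (1.01 each), and RD22, a BURP-domain protein, had 42.3, 42.5 and 21.2 CPM in myb107-2, against 140, 137 and 64.4 CPM in WT. The number called higher was 2 to 4 with 1 library left out, and 0 to 5 under the alternatives that left no single library out. NAC019 was 1 of 3 NAC factors called higher out of 71, with NAC6 and NAC047, and that family had a median of 0.00. Of the 11 genes of abscisic acid synthesis and breakdown, edgeR and DESeq2 called 0, with 1 lower and 1 higher at an unadjusted p under 0.05 and a median of 0.11, including NCED9 (44.4, 40.1 and 45.2 CPM in myb107-2, 34.3, 27.5 and 19.7 CPM in WT).

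Maturation regulators and seed storage proteins were not called by edgeR or DESeq2. At an unadjusted p under 0.05, 2 regulators were lower and 3 higher, and 0 storage proteins were lower and 3 higher. Among the regulators, ABI3, which activates storage genes, had 63, 52.2 and 68.9 CPM in myb107-2, against 32.7, 47 and 47.4 CPM in WT. ABI4 went the other way at low values, with 0.21, 0.0637 and 0 CPM in myb107-2, against 0.301, 1.17 and 0.672 CPM in WT. The list of 9 regulators had a median of 0.37. The 9 storage protein genes all had values above 0, with a median of 0.47, and their sum was 35447 to 42547 CPM in myb107-2 and 21856 to 42483 CPM in WT, so the genotypes overlapped. In CRC, a cruciferin, WT replicate 3 was the highest WT library (1441, 1109 and 707 CPM in myb107-2, 580, 402 and 1021 CPM in WT). GA20OX2, which makes precursors of active gibberellin, was called higher (12.3, 15.9 and 15 CPM in myb107-2, 5.97, 4.2 and 7.89 CPM in WT).

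In a list of ribosome biogenesis genes chosen after the values were seen, all 11 tested members had values above 0, 4 were called higher, and the median was 0.55. FIB2, a fibrillarin that modifies ribosomal RNA in the nucleolus, had 21.5, 29.2 and 27.6 CPM in myb107-2, against 11.7, 11.4 and 15 CPM in WT (log2 fold change 1.02, edgeR adjusted p = 0.0051). HDA3, a nucleolar histone deacetylase, had 20.4, 31.8 and 38 CPM in myb107-2, against 11.5, 13.1 and 15.9 CPM in WT. NUC1, a nucleolin, was at 219 CPM in myb107-2 and 151 CPM in WT and did not reach the fold threshold. The number called was 1 without myb107-2 replicate 2, without myb107-2 replicate 3, without WT replicate 1 or without WT replicate 2. The share of counts from ribosomal RNA genes, given above, overlapped between the genotypes.

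Several lists held no gene called by edgeR. Light-harvesting and Rubisco small subunit genes had 24 members and a median of 0.00, a list of oil body proteins 7 members and a median of −0.12, and aquaporins 27 members and a median of −0.08. Among these, 2, 1 and 2 genes were lower and 0, 1 and 2 higher at an unadjusted p under 0.05, and DESeq2 called 0. The oil body list does not hold AT2G25890, an oleosin family gene called lower and described with its opposite-strand partner. Cyclins and their kinases had 23 members, a median of −0.28 and sums of 29.7 to 37.3 CPM in myb107-2 and 37.7 to 72.3 CPM in WT. At the unadjusted p, 6 of them were lower and 0 higher, and DESeq2 called 0. Of the 30 cellulose synthases and related proteins 7 were lower and 2 higher, of the 19 xyloglucan hydrolases 3 and 2, and of the 16 expansins 4 and 3, again at the unadjusted p and with 0 called by DESeq2. UDP-glycosyltransferases (54 members, 3 lower and 4 higher at the unadjusted p), WRKY factors (52 members, 9 and 2) and CASP and CASPL proteins (32 members, 5 and 0) had 1 member each called lower by DESeq2. The share of all genes tested that passed the unadjusted p was not worked out. The counts at that p, here and above, are therefore a description only. Of 47 lists examined, 37 had a median below 0.

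**Figure D3:**
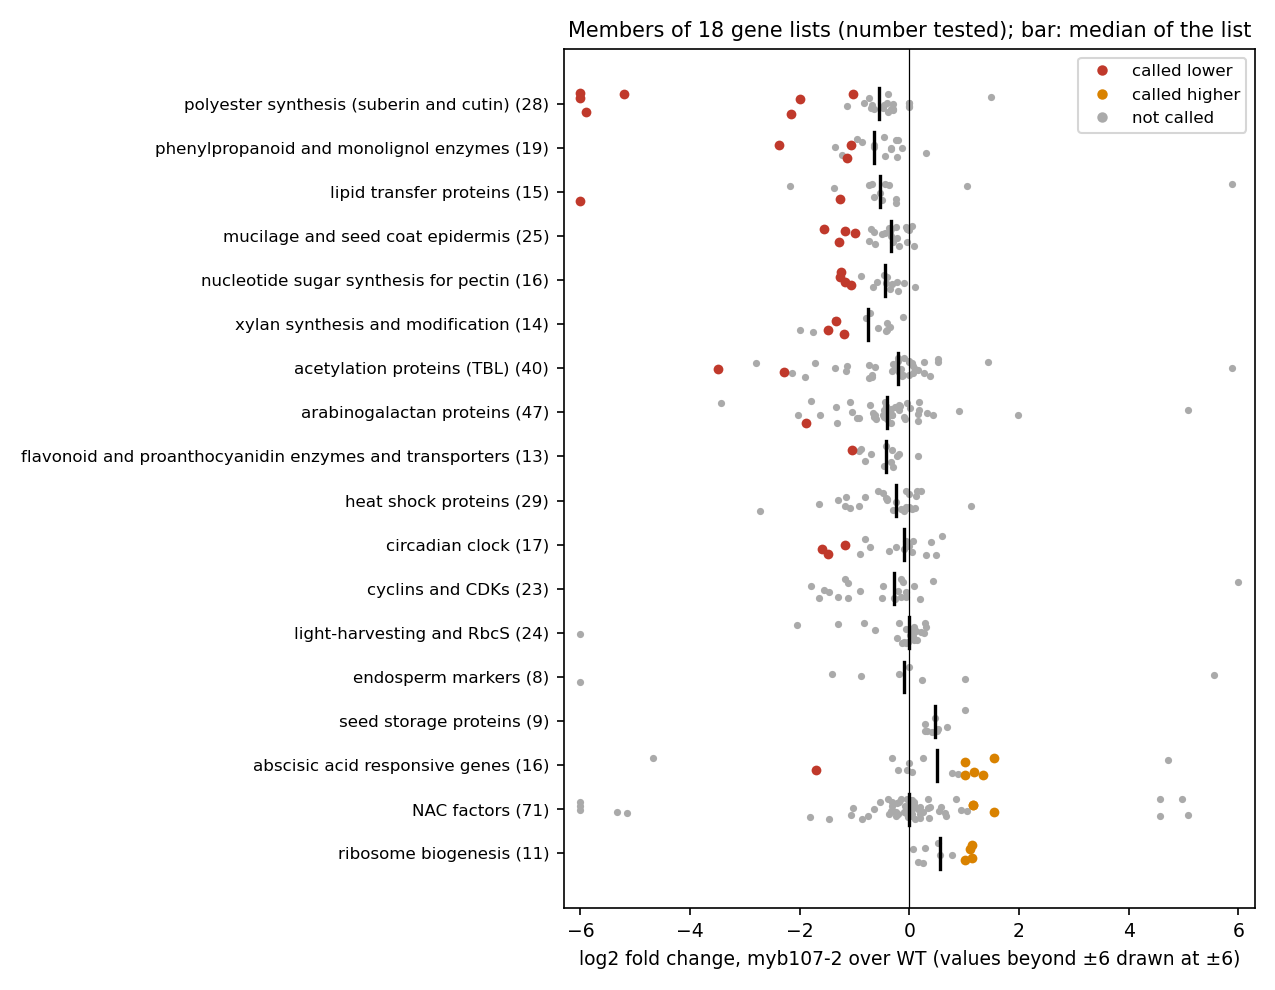
Each row is a gene list with the number of members tested, each point a gene placed by its log2 fold change (myb107-2 over WT), and the black bar the median of the list, with values beyond 6 log2 units in size drawn at the edge. Polyester, phenylpropanoid, lipid transfer, mucilage, sugar donor and xylan lists have medians below 0 with red points for called lower genes, and the abscisic acid and ribosome lists have medians of 0.51 and 0.55 with orange points for called higher genes.

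Some calls came from genes that share a locus with another gene. Of the 234 called genes, 26.9% overlapped another annotated gene, against 33.2% of all genes tested, and for these the counts are less certain, since the strand setting of the counting is not given in the sources used here. ASFT, EXT3, AT3G22620, QRT2, TBL30, MYB9, MBF1C and BGLU45 are among the named genes with a partner on the opposite strand. Further ones include 4CL5, IRX15-L, RAB18, LEA7, HDA3, FER1, DIN10, PME44, AT4G26580 and AT4G17280. Genes with a partner on the same strand include EDA4, FIB2 and MAN7. In 3 pairs the genes on opposite strands were called in opposite directions. TCP9, a TCP transcription factor, had 0 counts in all 3 myb107-2 libraries and 38, 28.3 and 25.1 CPM in WT (at least 742-fold lower, edgeR adjusted p = 0.048), while AT2G45685, a non-coding RNA on the other strand, had 40, 36.3 and 38.4 CPM in myb107-2 and 2.31, 8.82 and 12.5 CPM in WT. The sum of the pair was 38.2 ± 1.88 CPM in myb107-2 and 38.3 ± 1.77 CPM in WT (SD, n = 3), a difference within the spread of the libraries. The call of TCP9 was lost when any 1 library was left out. AT2G25890, an oleosin family gene, was likewise at 0 in myb107-2 and at 11.7, 6.14 and 7 CPM in WT, while AUR2, an Aurora kinase gene on the other strand, had 19.2, 23.4 and 25.5 CPM in myb107-2 and 8.83, 11.1 and 9.63 CPM in WT, and their sum was 22.7 ± 3.22 CPM in myb107-2 and 18.1 ± 2.1 CPM in WT. The third pair, AT5G14230 and AT5G02195, summed to 7.24 ± 1.77 CPM in myb107-2 and 11.8 ± 2.04 CPM in WT.

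**Figure D4:**
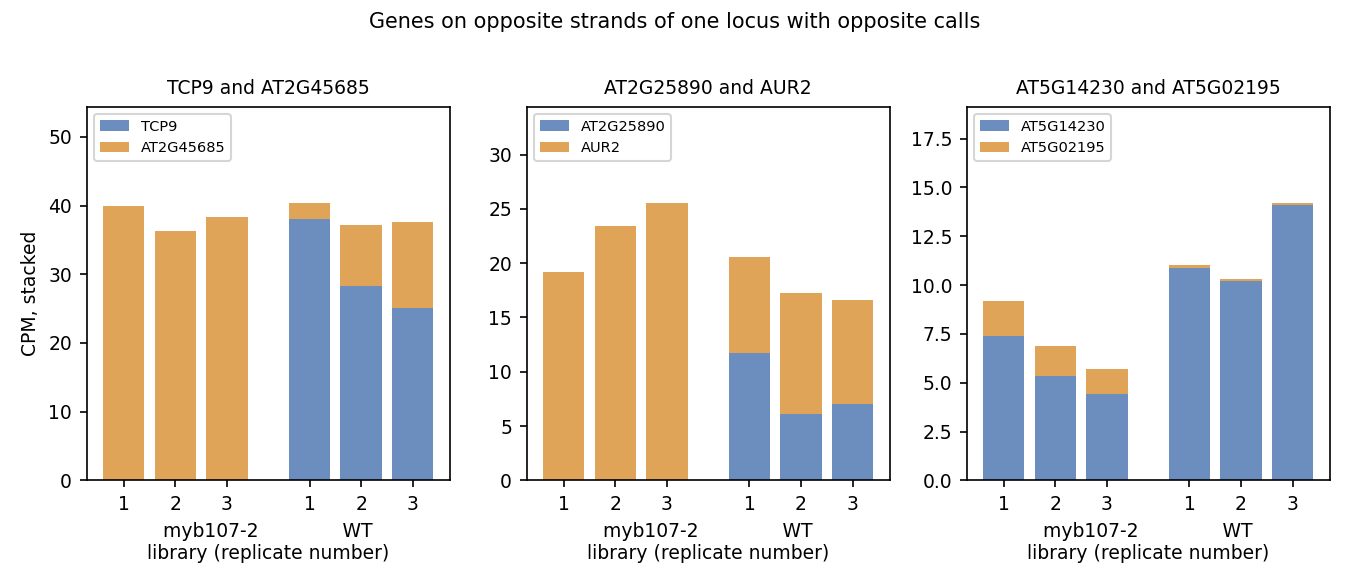
Stacked bars give the CPM of the genes of 3 loci in each library, myb107-2 left of WT. At the TCP9 locus the total height is 38.2 CPM in myb107-2 and 38.3 CPM in WT, while the share of each gene differs between the genotypes.

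Genes at no more than 3 counts in every library of a genotype and at least 5 CPM on average in the other numbered 12 for myb107-2 and 5 for WT. Of the 12, 8 were called: AT2G25890, AT2G48130, AT3G22620, AT1G21540, BDG3, AT1G74460, EDA4 and TCP9. AT1G74460, a GDSL lipase gene, had 7.48, 6.5 and 15.2 CPM in WT, and AT1G21540, an AMP-dependent synthetase gene, had 5.21, 5 and 18.2 CPM in WT. The 4 uncalled genes and the 5 at or near 0 in WT had values in only some libraries of the other genotype, such as RABE1b with 0, 117 and 123 CPM in myb107-2. Counts of 0 were not tied to a genotype for some of these genes. AT2G25890 was at 0 in every WT library at 13 DAP, and averaged 39.6 CPM in myb107-2 and 26 CPM in WT after 48 h of cold. TCP9 ranged from 0 to 51.3 CPM among the WT libraries at 13 DAP. The source of these zeros was not tested.

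Neighbouring genes called together were all lower, in a comparison with 187 lower and 47 higher calls. Among adjacent genes, 10 pairs were called in the same direction, and 2 of them overlap. The number of pairs that such call counts would give by position alone was not worked out, so the pairs are a description only. Besides the lipid transfer pairs and the 4CL pair described above, they included BDG3 and AT4G24130, a gene of the DUF538 family that had 34.8, 42.5 and 38.7 CPM in myb107-2, against 160, 159 and 196 CPM in WT. AT1G72230 and AT1G72240 were a further pair (0.692, 0.557 and 0.483 CPM for AT1G72240 in myb107-2, 5.98, 5.8 and 8.1 CPM in WT). The cupin genes AT5G39110 and AT5G39120 lie 3949 bases apart and have 79.7% and 52.7% unique 50-base windows, so reads may be shared between them and with other copies.

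The same genes were then read in the libraries taken after 48 h of cold, which are different libraries of both genotypes. Of the 187 lower genes, 81 were also called lower in the cold, where 1.14% of all genes were, 162 had values below 0, and their median was −1.32 against 0.00 for all genes. Of the 47 higher genes, 19 were also called higher, where 0.706% of all genes were, and 41 had values above 0, with a median of 0.65. The cold calls were unevenly spread: 38 of the 45 genes with changes of 8-fold or more were called lower in the cold too, and 43 of the 142 with smaller changes. TBL45 had a log2 fold change of −4.28 in the cold, EXT3 of −5.48 and MYB107 of −3.56. MUM4 averaged 77 CPM in myb107-2 and 80.3 CPM in WT in the cold, LHY 90.3 and 91.7 CPM, and NAC019 102 and 101 CPM, and none of them was called there. AT5G39110 was called in the opposite direction, with 25.5 CPM in myb107-2 and 5.12 CPM in WT after cold.

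**Figure D5:**
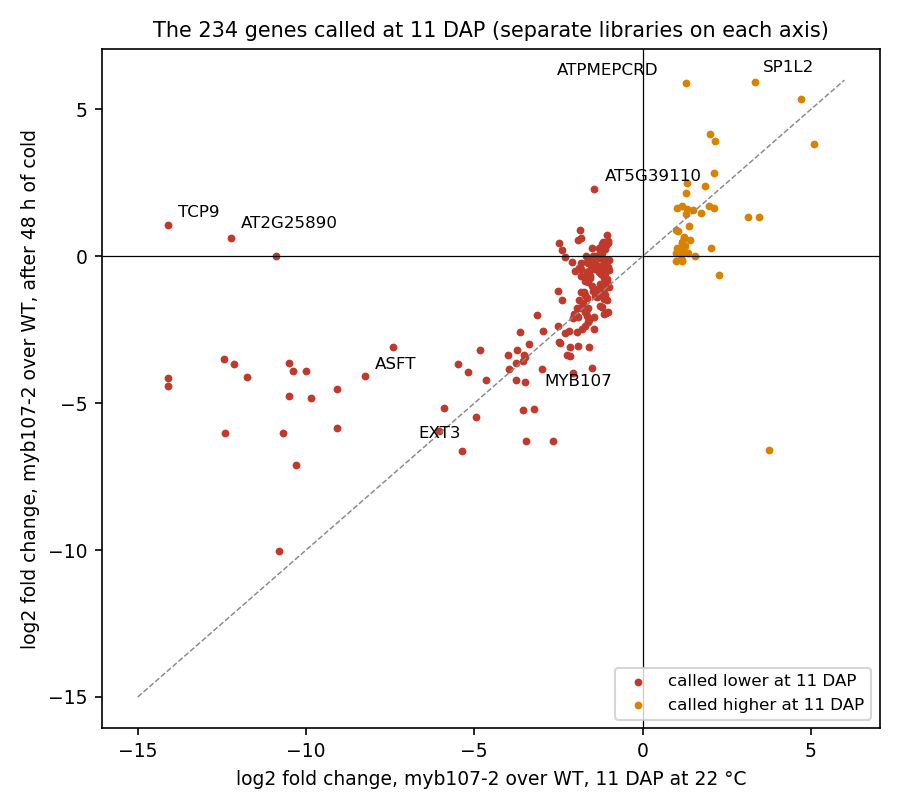
Each point is 1 of the 234 genes called at 11 DAP, with its log2 fold change (myb107-2 over WT) at 11 DAP on the x axis and after 48 h of cold on the y axis, and the dashed line marks equal values. Most genes with large decreases lie below 0 on both axes, and the cloud near −1 to −2 spreads around 0 on the cold axis.

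WT at 13 DAP in the warm shows how these genes stand later in normal development, and its values are given beside those at 11 DAP without a test, since both readings use the WT libraries at 11 DAP. ASFT averaged 1377 CPM, CYP86B1 787 CPM, BDG3 246 CPM and PELPK1 5783 CPM at 13 DAP, against 321, 38.7, 5.95 and 13 CPM in WT at 11 DAP. These values were many times higher at the later stage. GATL5 averaged 17.1 CPM, IRX9 1.88 CPM, LTP6 8.91 CPM and MUM4 82.4 CPM at 13 DAP, against 235, 106, 150 and 236 CPM in WT at 11 DAP. The values of these 4 genes were lower at the later stage. Members of the same groups differed in this: the lipid transfer gene EDA4 averaged 550 CPM, AT2G48130 351 CPM and AT3G22620 195 CPM at 13 DAP, against 7.88, 30.1 and 30.7 CPM in WT at 11 DAP, and the xylan gene IRX15-L averaged 11.9 CPM, against 4.54 CPM. EXT3 averaged 798 CPM at 13 DAP and 2516 CPM in WT at 11 DAP. Genes lower in myb107-2 at 11 DAP thus included some with higher and some with lower WT values at 13 DAP.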

How the data were processed

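Polyadenylated RNA was sequenced with a stranded kit in 18 libraries of 6 groups. The authors trimmed reads with Trim Galore and Sickle, aligned them with HISAT2 and deposited StringTie estimated counts per gene as whole numbers, and used DESeq2. Versions, build, annotation and strand setting are not given in the sources used here. Of 37883 nuclear genes, 22 whose identifiers were dates in 5 files were left out, and the remaining 37861 were matched to TAIR10.1. The counts were fitted with edgeR 4.0.16 in R 4.3.3 (TMM scaling, quasi-likelihood F test, Benjamini-Hochberg adjustment) over 12 libraries in 4 groups, both genotypes at 11 DAP and after 48 h of cold. Each SE was derived from the estimate and its F statistic. CPM were scaled over 18 libraries. DESeq2 1.42.0 was an alternative. On simulated data with 200 of 25748 genes changed, edgeR called 167 of them and 21 others. In the text, a floor of 3 counts per library bounds folds against genes at 0. These bounds hold only where a deposited 0 stands for low expression, and the source of the zeros was not tested. The deposited totals exceed the number of single reads per library that the methods state, so a count may not be 1 read, and the floor, the detection limit and the bounds on folds are in deposited counts. Intervals and floors cover counting error only.

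Genes were named by rule: MYB107 and MYB9, the 15 lower and 12 higher genes with the smallest p among those with non-overlapping libraries and at least 1 CPM, genes at no more than 3 counts in a genotype and at least 5 CPM in the other, up to 4 called members of each list (2 where none was called), and neighbours called together. The members and lists were chosen with earlier results of these data known, and 6 lists and 30 genes were added after their values were seen. The rules of 4 lists were corrected for false name matches before their values were looked at. Alternatives covered scaling, filters, libraries fitted, a replicate block, the fold minimum, ribosomal RNA genes and each library left out.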

Additional observations from a re-analysis of the deposited data

Results flagged for a closer look

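The effect of the mutation at 11 DAP was compared with that after 48 h of cold by an interaction term in edgeR, and 12 of the named genes differed. Over all genes tested, 73 did. For AT4G36610 the log2 fold change was −9.84 at 11 DAP and −4.83 in the cold, a difference of −5.00 ± 0.65 (SE, edgeR adjusted p = 0.0018). ASFT, at −8.26 and −4.06, gave a difference of −4.19 (edgeR adjusted p = 0.0018), and AT3G22600, at −9.07 and −4.53, one of −4.54 (edgeR adjusted p = 0.0497). In these 3 genes the decrease was the smaller one in the cold, where the mutant held some transcript: ASFT averaged 36.8 CPM in myb107-2 and 609 CPM in WT after cold, and AT4G36610 15 CPM in myb107-2 and 423 CPM in WT.

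Other effects were larger after 48 h of cold. SP1L2 had a log2 fold change of 3.34 at 11 DAP and 5.92 in the cold (difference −2.57, edgeR adjusted p = 0.0018), and ATPMEPCRD one of 1.30 and 5.89 (difference −4.59, edgeR adjusted p = 4.9e-06). ATPMEPCRD averaged 483 CPM in myb107-2 and 7.75 CPM in WT after cold. AT5G63180 was at −1.91 and −3.05 (difference 1.14, edgeR adjusted p = 0.039).

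The remaining genes were called at 11 DAP and not in the cold, or turned. NAC019 was at 1.55 and 0.00 (difference 1.55, edgeR adjusted p = 0.048). FER1, an iron-storing ferritin, was at −1.12 and 0.26 (difference −1.38, edgeR adjusted p = 0.009), and HYH at −1.30 and 0.28 (difference −1.58, edgeR adjusted p = 0.039). AT5G39110 was at −1.43 and 2.28 (difference −3.71, edgeR adjusted p = 0.0018). The opposite-strand genes AT2G25890 (difference −12.85, edgeR adjusted p = 9.0e-05) and AT2G45685 (difference 2.90, edgeR adjusted p = 0.019) were among them too, the fitted value of AT2G25890 being no measure of size since it was at 0 in myb107-2 at 11 DAP.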

How the results depend on the processing

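The 187 lower and 47 higher calls became 262 and 82 with DESeq2, 139 and 39 with the legacy method of edgeR, 129 and 36 with only the 6 libraries fitted, and 323 and 102 with no fold change minimum. Leaving out 1 library gave 92 to 228 lower and 22 to 66 higher calls. Other scalings, filters on low counts and removal of ribosomal RNA genes gave 180 to 189 and 42 to 48. Same-numbered libraries of the genotypes did not deviate together (correlations of −0.08, −0.12 and −0.01), so the numbers did not pair them. Pearson correlations of log2 CPM did not fully separate the genotypes. For myb107-2 replicate 1 they were 0.954 with WT replicate 2, and 0.952 and 0.939 with myb107-2 replicates 2 and 3. The WT libraries had 0.948 to 0.954 with each other. A fit with the replicate number as a block called 81 lower and 20 higher genes. Of 124 called genes named here, 47 kept their call under every alternative, and 0 changed direction. With 3 libraries a genotype and deposited totals of 59.3 M or more, the detection limit of 3 counts is 0.0315 to 0.0478 CPM.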

Other observations

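These genes were chosen after their values were seen and stand for no group. JMT, which methylates jasmonic acid, had 12.6, 12.1 and 9.52 CPM in myb107-2, against 44.2, 45.5 and 17.9 CPM in WT (log2 fold change −1.67, edgeR adjusted p = 0.0048). PBS3, of salicylic acid synthesis, had 4.5, 3.15 and 5.96 CPM in myb107-2, against 15.7, 9.47 and 15.9 CPM in WT. FER1 had 53.6, 53.4 and 43.5 CPM in myb107-2, against 113, 117 and 92.2 CPM in WT. In these 3 genes the libraries of the genotypes did not overlap.

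The serine carboxypeptidase-like gene scpl5 had 2.44, 2.51 and 0.996 CPM in myb107-2, against 24.8, 22.9 and 32.2 CPM in WT. AT4G17280, annotated as auxin-responsive, had 1.96, 2.26 and 0.923 CPM in myb107-2, against 25.1, 22.9 and 32 CPM in WT. AT1G28400, annotated as a GATA zinc finger protein, had 1.1, 0.446 and 0.644 CPM in myb107-2, against 13.7, 8.12 and 36.3 CPM in WT, and averaged 702 CPM in WT at 13 DAP. KCS3, annotated as a fatty acid elongase, had 6.71, 7.19 and 2.62 CPM in myb107-2, against 21.1, 19 and 17.8 CPM in WT.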
